A study of Mus musculus with 14 samples.

Results

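The immunoglobulin genes of mouse liver and kidney were followed on a normal diet and under high salt. They were the rows of the gene count tables named as heavy (Ighv), kappa (Igkv) or lambda (Iglv) variable segments, the heavy constant genes Ighm, Ighg1, Ighg2b, Ighg2c, Ighg3 and Igha, the kappa constant gene Igkc, and Jchain. The tables held 22263 genes between them, and 27 immunoglobulin genes were in both. The liver table held 28 of them among 19660 genes, made up of 1 heavy, 18 kappa and 2 lambda segments and 7 constant or Jchain genes. The kidney table held 101 among 20203 genes, with 30 heavy, 60 kappa and 3 lambda segments and 8 constant or Jchain genes. Ighg3 was in the kidney table only, and the heavy segment Ighv1-56 was the 1 member in the liver table only. On build GRCm38 the heavy chain genes lie on chromosome 12, from Igha (start 113254830) to Ighm (end 113422730) for the constant genes, with the variable segments beyond them. Igkc lies at chr6:70726435-70726966 with the kappa segments on the same chromosome, the lambda segments lie on chromosome 16, and Jchain lies apart at chr5:88519809-88527891.

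All libraries came from male mice of 12 weeks with a transgene for human angiotensinogen, haplotype -6A, which the controls carried too. There were 14 libraries: liver with 4 under normal diet and 4 under high salt, and kidney with 3 on each diet. The labels do not say that each library is another animal, nor give the salt content or its duration, so p-values measure the spread between these samples. Normal diet liver libraries are called 1 to 4 and kidney libraries 1 to 3 in each diet, after their titles. High salt liver libraries are called 5 to 8, the numbers in their column names, which match no title.

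Antibodies are made of paired heavy and light chains. A B cell builds each chain by joining a variable segment, chosen from many, to short joining segments and, after splicing, to a constant gene, and it keeps that choice in all its daughter cells. Resting B cells carry IgM on their surface, and plasma cells, their descendants, hold very large amounts of immunoglobulin mRNA. Liver cells and kidney tubule cells are not known for antibody production, so these transcripts in whole tissue are usually attributed to resident or passing lymphoid cells. In bulk RNA, fewer cells of a type and less RNA per cell cannot be told apart.

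Liver libraries held 37267778 to 51487382 gene counts and kidney libraries 16046094 to 22004927. The labelled tissues carried their own markers: 5 kidney genes summed to between 23500 and 58200 CPM (counts scaled to library size) in kidney, and the 4 of them in the liver table to at most 43.4 CPM in liver. The 5 liver genes of the list summed to between 52400 and 108000 CPM in liver and to at most 1630 CPM in kidney. In kidney, normal diet library 1 stood apart over all genes. Its median absolute log2 difference from normal diet libraries 2 and 3 was 0.501 and 0.557, against 0.141 between those 2. Kidney high salt library 3 had the smallest mitochondrial share of the kidney libraries, 23.5% of counts, and normal diet library 1 the largest, 41.2%. In liver, normal diet libraries 1 and 2 differed by 0.15 on the same measure and libraries 3 and 4 by 0.325. Across these pairs the difference was 0.472 to 0.526. Mitochondrial shares were 2.3%, 2.06%, 29.6% and 18.7% in normal diet livers 1 to 4 and 11.3% to 19.2% in high salt livers. High salt liver libraries 5 and 6 were closer than any other pair of their diet, at 0.0777. They still differed by more than counting error and were kept as 2 samples.

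Immunoglobulin transcripts were a small part of every library, and in kidney their amount ranged widely within each diet while the medians of the diets were close. The members together made up 0.000936%, 0.0268% and 0.0304% of the counts of kidney normal diet libraries 1, 2 and 3. On high salt they made up 0.0217%, 0.0134% and 0.166% of libraries 1, 2 and 3. Normal diet library 1 was the lowest of the 6 kidneys and high salt library 3 the highest, and the other 4 lay between them. Normal diet library 1 gave the lowest or tied lowest value for 99 of the 101 members and held under 0.5 counts for 88 of them, whereas high salt library 3 gave the highest value for 64. In liver the 28 members made up between 0.000895% and 0.00281% of normal diet libraries and between 0.000726% and 0.00531% of high salt libraries.

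Igkc encodes the constant part of the kappa light chain, the light chain of most mouse antibodies. In kidney it stood at 3.10, 88.6 and 96.9 CPM in normal diet libraries 1 to 3 and at 70.2, 36.3 and 465 CPM in high salt libraries 1 to 3. The diets overlapped, with 4 libraries between 36.3 and 96.9 CPM, 1 far below and 1 far above. Group means were 62.9 ± 51.9 CPM under normal diet and 190 ± 238 CPM under high salt (SD, n = 3 each). The log2 difference was 1.60 (SE 1.20, adjusted p 0.9996, quasi-likelihood test of edgeR), and it was -0.24 without high salt library 3.

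Ighm, the constant gene of IgM, was the heavy constant gene with the largest diet difference in kidney. It stood at 2.75, 13.0 and 9.92 CPM under normal diet and at 31.6, 11.7 and 306 CPM under high salt. High salt library 2 lay between the normal diet libraries, so the diets overlapped. Means were 8.56 ± 5.26 and 116 ± 165 CPM (SD, n = 3 each). The log2 difference of 3.77 (SE 1.18) had an unadjusted p of 0.0125 in edgeR and an adjusted p of 0.9996. Without high salt library 3 the difference was 1.35 (SE 0.66, unadjusted p 0.0833 in edgeR).

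The class-switched heavy chain genes are used by B cells that have replaced IgM by another class. Igha, the constant gene of IgA, the main antibody of mucosal surfaces, stood at 1.45, 18.6 and 16.5 CPM under normal diet and at 14.6, 10.8 and 43.3 CPM under high salt. Apart from normal diet library 1 and high salt library 3, its 4 values lay between 10.8 and 18.6 CPM. Ighg1 stood at 0, 1.99 and 5.96 CPM under normal diet and at 0.804, 1.01 and 24.8 CPM under high salt. Ighg3 stood at 0, 0.996 and 0.775 CPM against 1.07, 0.126 and 1.05 CPM. Both IgG genes had a count of 0 in normal diet library 1, which says only that they lay under 3 counts there.

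Ighg2b and Ighg2c, 2 neighbouring IgG constant genes, stood at 0.05, 9.07 and 21.5 CPM and at 0, 10.6 and 22.4 CPM under normal diet. On high salt they stood at 14.3, 4.12 and 27.9 CPM and at 4.61, 2.00 and 48.2 CPM. Their counts were fractions that added up to whole numbers in 5 of the 6 kidney libraries, so reads were divided between these similar genes and the split between them is uncertain. None of the switched genes passed the test, with log2 differences of 0.92 for Igha, 1.74 for Ighg1, 0.60 for Ighg2b, 0.74 for Ighg2c and 0.39 for Ighg3 (SE 0.82 to 1.46). Leaving out high salt library 3 turned the sign for Ighg1 (-1.55), Ighg2b (-0.14) and Ighg2c (-1.71).

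**Figure D1:**
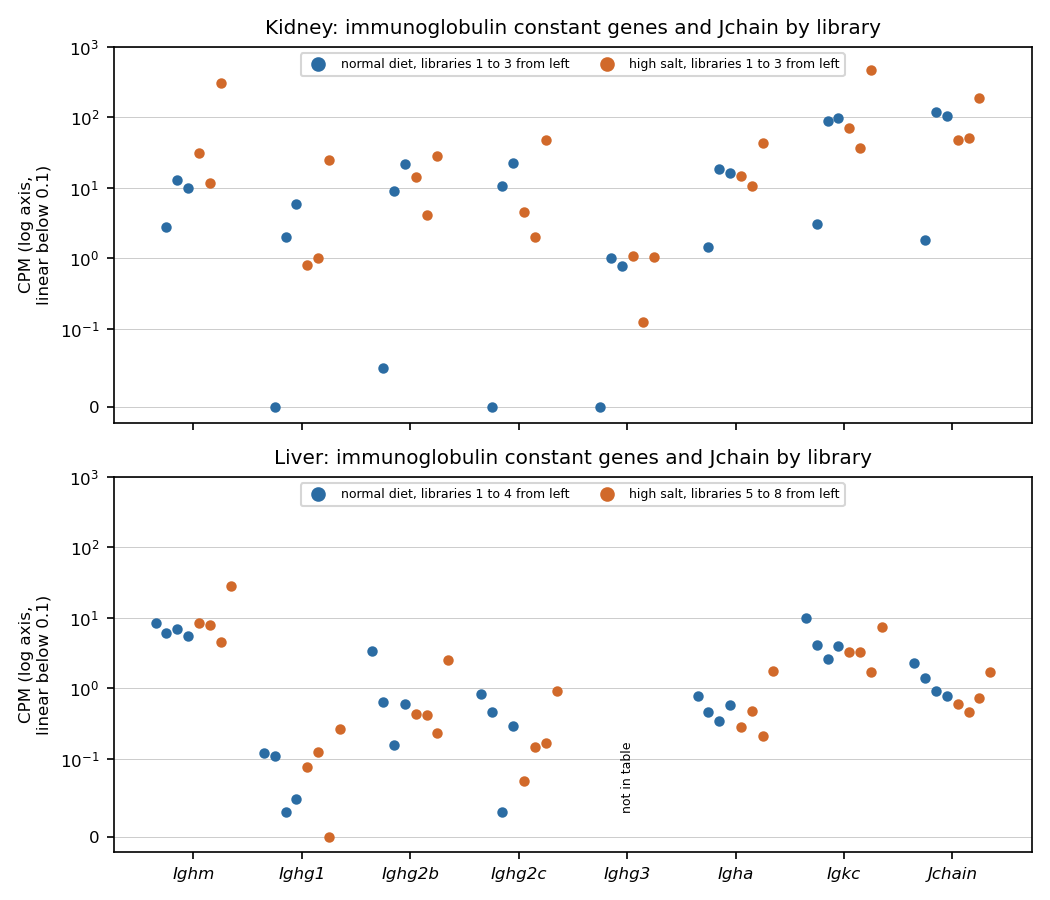
Levels of the constant genes and Jchain by library in kidney (top) and liver (bottom), in CPM on a log axis that is linear below 0.1. Each point is 1 library, blue for the normal diet and orange for high salt; in kidney, normal diet library 1 is the lowest point of each gene and high salt library 3 is the highest for all genes but Ighg3.

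Jchain, the small protein that links IgM and IgA into polymers, is most abundant in plasma cells. In kidney it stood at 1.80, 120 and 105 CPM under normal diet and at 47.6, 51.1 and 188 CPM under high salt. High salt libraries 1 and 2 had less than normal diet libraries 2 and 3, and high salt library 3 had more. The log2 difference was 0.34 (SE 1.10), -0.62 without high salt library 3 and -0.24 without normal diet library 1.

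The relative use of the heavy chain classes differed between kidneys. Scaled per kilobase (kb) of exon, Ighm made up 72.2%, 26.2% and 13.5% of the heavy constant signal in normal diet libraries 1 to 3, and 52.7%, 45.2% and 69.0% in high salt libraries 1 to 3. The IgG genes together made up 0.924%, 47.4% and 70.6% under normal diet and 30.1%, 25.4% and 24.1% under high salt. Igha made up 26.9%, 26.4% and 15.9%, then 17.3%, 29.4% and 6.90%. Ighm exceeded the IgG genes in all 3 high salt kidneys and in normal diet library 1, where these shares rest on few counts, since the constant genes summed to 147 there. Each share range overlapped between the diets. Exon lengths were the union over annotated transcripts, 2678 bases for Ighg2b but 1326 for Ighg2c, so these shares depend on the annotation.

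Per kb of annotated exon, Igkc signal exceeded the summed heavy constant signal in every kidney. The annotated exons of Igkc span 532 bases and those of the heavy constant genes 1326 to 2678, so these ratios depend on the annotation. The ratio of Igkc to the summed heavy constant genes per kb was 2.88, 6.32 and 4.67 under normal diet and 4.14, 4.97 and 3.71 under high salt. It was lower in liver, 1.23 to 2.75 under normal diet and 0.819 to 1.33 under high salt. Jchain against the heavy constant genes per kb ranged from 0.317 to 1.81 in kidney and from 0.0389 to 0.138 in liver. High salt library 3 had both the most immunoglobulin signal and the lowest Jchain ratio of the 6 kidneys.

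Variable segments encode most of the part of each chain that binds antigen, and in kidney their summed level moved with that of the constant genes. The 93 segments summed to 0.650, 44.8 and 41.0 CPM under normal diet and to 28.9, 18.2 and 222 CPM under high salt. The 7 constant genes without Jchain summed to 7.34, 143 and 174 CPM and to 137, 66.0 and 916 CPM. The order of the 6 libraries was the same for both sums, except that normal diet libraries 2 and 3 changed places. The log2 ratio of the high salt mean to the normal diet mean was 1.64 for the segments and 1.79 for the constant genes, and with normal diet library 1 and high salt library 3 both left out it was -0.64 for the constant genes.

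**Figure D2:**
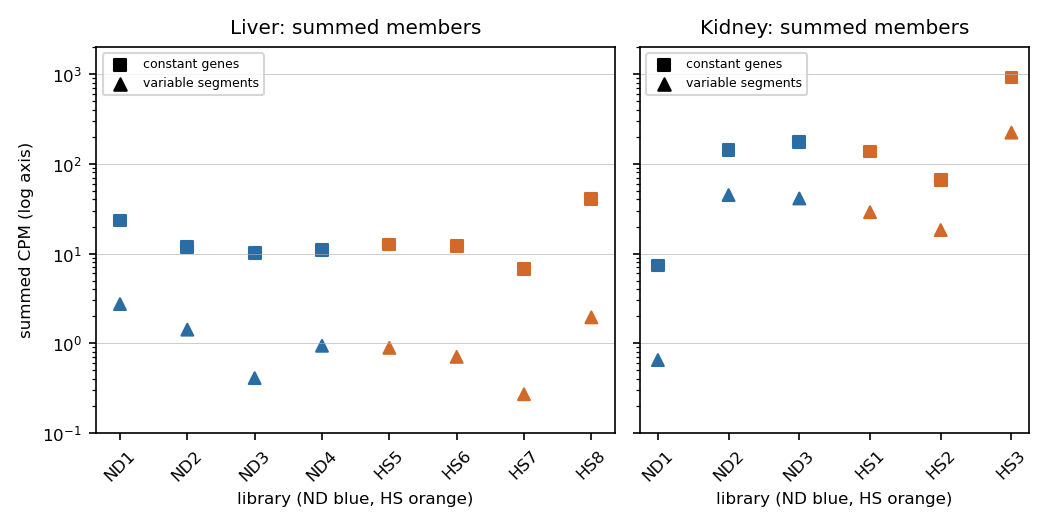
Summed CPM of the constant genes (squares) and the variable segments (triangles) in each library, on a log axis, with liver on the left and kidney on the right. Blue marks the normal diet and orange high salt; the 2 sums move together from library to library in kidney, while in liver high salt library 8 had the highest constant sum, 40.8 CPM, and normal diet library 1 the highest segment sum, 2.73 CPM. Kidney libraries other than normal diet 1 lie above all liver libraries.

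Per kb, variable segments gave less signal than constant genes in all libraries. Their ratio was 0.223, 0.62 and 0.494 in normal diet kidneys and 0.475, 0.597 and 0.529 in high salt kidneys. Kidney means were 0.446 ± 0.203 and 0.534 ± 0.0614 (SD, n = 3 each). Liver means were lower, 0.24 ± 0.0872 under normal diet and 0.168 ± 0.0371 under high salt (SD, n = 4 each), but kidney normal diet library 1 lay below liver normal diet libraries 1 and 2, at 0.292 and 0.32. The tables held 93 segments for kidney and 21 for liver, and with members of at least 10 counts in some library the mean over the 8 livers was 0.0973 in place of 0.204. The ratio overlapped between the diets in both tissues. As a mean over the 6 kidneys, Igkc stood at 238 CPM per kb, Jchain at 34.0, Ighm at 33.2 and Ighg2c at 11 CPM per kb, and the SDs of the values above leave neighbours after Igkc in this order unresolved. Igkv6-17 and Ighv4-1, at 30.2 and 17.9 CPM per kb, rest on high salt library 3. Segments are short, with a median exon length of 363 bases.

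In kidney high salt library 3, a pair of segments dominated. Ighv4-1 took 973 of 1386 heavy segment counts, 70.2% (95% Wilson interval 67.7 to 72.6, counting error only). In the other 5 kidneys it had 0, 0, 3, 1 and 1 counts. Igkv6-17 took 1452 of 3378 kappa segment counts, 43% (95% Wilson interval 41.3 to 44.7), against 0, 22.0 and 8.47 counts in the normal diet kidneys and 6 counts in each other high salt kidney. The level of Ighv4-1 was 44.2 CPM and that of Igkv6-17 was 66.0 CPM in this library, and neither exceeded 1.29 CPM in any other kidney.

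In that library the next of the kappa segments was Igkv13-85 with 336 counts, and the next of the heavy segments was Ighv3-5 with 61, both named here after their values were seen. Igkv13-85 had at most 1 count in any other kidney, and Ighv3-5 had 0. The effective number of segments, the inverse of the summed squared shares, was 7.17 in high salt library 3. It was 15.9 to 28.6 in the other kidneys except normal diet library 1, although library 3 held counts for 90 of the 93 segments, more than any other. Ighv4-1, Igkv6-17, Igkv13-85 and Ighv3-5 did not pass the filter on low counts.

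The germline coding sequences of the leading pair are shown because they identify what the reads of this kidney were assigned to. Sequences are from GENCODE M21 on build GRCm38, 5′ to 3′ in the sense of the gene. Capitals mark bases that differ from the most similar other member with a coding sequence. The last 300 bases of each coding sequence are given, from position 51 of 350 in Ighv4-1 and from position 48 of 347 in Igkv6-17. Ighv4-1 lies at chr12:113948282-113948796 on the minus strand in the heavy chain locus and Igkv6-17 at chr6:70371439-70371993 on the plus strand in the kappa locus.
Ighv4-1: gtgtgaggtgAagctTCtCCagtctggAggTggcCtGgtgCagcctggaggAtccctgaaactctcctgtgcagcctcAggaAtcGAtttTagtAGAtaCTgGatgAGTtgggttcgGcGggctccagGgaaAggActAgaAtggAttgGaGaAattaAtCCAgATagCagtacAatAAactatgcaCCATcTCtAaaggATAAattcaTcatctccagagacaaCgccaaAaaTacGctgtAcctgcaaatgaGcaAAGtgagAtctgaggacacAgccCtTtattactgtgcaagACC
Igkv6-17: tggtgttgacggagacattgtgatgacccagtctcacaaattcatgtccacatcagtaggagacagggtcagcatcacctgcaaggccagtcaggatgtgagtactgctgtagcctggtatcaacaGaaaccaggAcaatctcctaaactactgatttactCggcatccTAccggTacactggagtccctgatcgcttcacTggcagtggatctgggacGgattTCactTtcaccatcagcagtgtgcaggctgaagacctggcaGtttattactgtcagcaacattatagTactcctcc
Ighv4-1 was 74.8% identical to Ighv5-17, its nearest among the members with a coding sequence. The pseudogene Ighv4-2, a member of the same family, has no coding sequence and was not compared. Igkv6-17 was 95.7% identical to Igkv6-25, which had 3.25 counts in the same library against the 1452 of Igkv6-17.

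**Figure D3:**
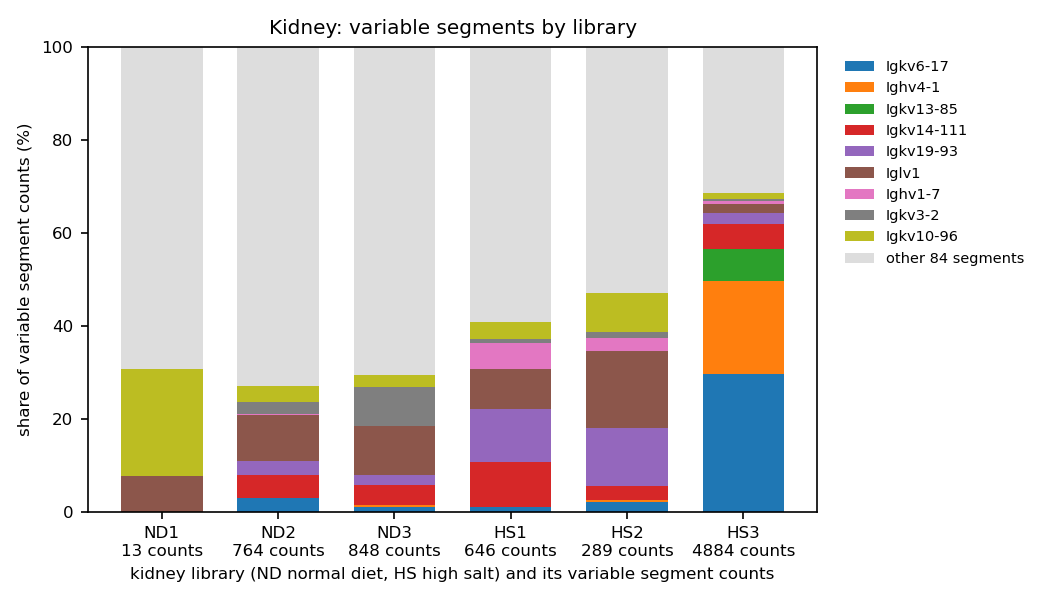
Share of each kidney library's variable segment counts taken by 9 segments and by the other 84, in percent, with the number of counts under each library. High salt library 3 gave 29.7% to Igkv6-17 and 19.9% to Ighv4-1, which are narrow or absent in the other bars; normal diet library 1 rests on 13 counts.

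Ighv1-7, a heavy chain segment, had the smallest diet p of the members tested in kidney. It had 0, 1 and 0 counts in normal diet kidneys and 36, 8 and 30 counts in high salt kidneys, or 0, 0.0586 and 0 CPM against 1.61, 0.504 and 1.36 CPM. All 3 high salt libraries lay above all normal diet libraries. The ratio of the pooled counts per library size, 74 against 1, was 70.9 (95% exact interval 12.3 to 2840, counting error only). Ighv1-7 passed the filter on low counts only through its high salt counts, so its fitted values and p-values are given as a description. The fitted log2 difference was 5.63 (SE 0.95), with an unadjusted p of 0.000324 in edgeR and an adjusted p of 0.9996. In DESeq2 it was past the threshold, with an adjusted p of 0.0258, as 1 of 11 genes (0.0694% of those tested).

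The level of Ighv1-7 did not follow the summed level of the other members. High salt library 1 had the most of it although its constant genes summed to 137 CPM, less than in normal diet libraries 2 and 3, where Ighv1-7 had 1 count in total. It led the heavy segments of high salt library 1 with 23.1% of 156 counts (95% Wilson interval 17.2 to 30.3) and of high salt library 2 with 27.3% of 29.3 counts (14.7 to 45.7). In high salt library 3 it was far behind Ighv4-1. With normal diet library 1 and high salt library 3 both left out, its log2 difference was 5.04 (SE 1.15, adjusted p 0.31 in edgeR). Ighv1-7 was not in the liver table, which holds no gene under 10 counts in total.

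The coding sequence of Ighv1-7, at chr12:114538495-114538965 on the minus strand, is shown because its nearest member, Ighv1-53, was 86.3% identical over the whole coding sequence. The last 300 of its 351 bases are given, with bases that differ from Ighv1-53 in capitals.
Ighv1-7: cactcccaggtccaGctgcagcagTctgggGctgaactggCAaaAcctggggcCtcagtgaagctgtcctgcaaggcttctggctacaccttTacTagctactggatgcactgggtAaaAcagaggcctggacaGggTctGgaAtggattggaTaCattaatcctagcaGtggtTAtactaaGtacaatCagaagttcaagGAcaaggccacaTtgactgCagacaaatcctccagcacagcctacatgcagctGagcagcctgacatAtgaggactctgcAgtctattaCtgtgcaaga

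Igkv19-93 also had diets that did not overlap. It stood at 0, 1.35 and 0.823 CPM under normal diet and at 3.31, 2.27 and 4.96 CPM under high salt. All high salt values lay above the highest normal diet value. The log2 difference was 2.30 (SE 0.84, unadjusted p 0.0251 and adjusted p 0.9996 in edgeR). It led the kappa segments of high salt libraries 1 and 2, with 17.1% and 17.0% of their counts. Igkv14-111 had the third smallest p among the segments, and stood at 0, 2.17 and 1.84 CPM against 2.77, 0.567 and 12.0 CPM (log2 difference 1.96, SE 1.18, unadjusted p 0.136 in edgeR). Its diets overlapped.

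Among lambda segments, Iglv1 had the highest level per kb, 7.99 CPM per kb over the 6 kidneys, against 0.56 for Iglv2. It stood at 0.05, 4.45 and 4.31 CPM under normal diet and at 2.5, 3.02 and 4.41 CPM under high salt. In high salt library 3, where most members peaked, it lay between normal diet libraries 2 and 3. The log2 difference was 0.18 (SE 0.89). It led all segments in normal diet libraries 2 and 3, with 9.95% and 10.5% of segment counts, and in high salt library 2 with 16.6%.

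Kidneys other than normal diet library 1 and high salt library 3 shared more of their segment use within a diet than between diets. Normal diet libraries 2 and 3 shared 71.5% of their segment distribution, the sum over segments of the smaller of both shares. High salt libraries 1 and 2 shared 63.0%. The 4 pairs across diets shared 49.9% to 54.6%. High salt library 3 shared 34.4% and 28.6% with high salt libraries 1 and 2, and 34.9% and 35.1% with normal diet libraries 2 and 3. Normal diet library 1, on 13 segment counts, shared 16.1% and 13.7% with normal diet libraries 2 and 3. It shared 17.3%, 24.3% and 5.48% with high salt libraries 1 to 3. With 2 libraries per diet these are descriptions with no test, and high salt library 2 rests on 289 segment counts.

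Across the fit, no immunoglobulin gene was called by diet in kidney, and no gene at all was. Of the 101 members 24 passed the filter, and 0 of them had an adjusted p under 0.05 in edgeR, as had 0 of 15847 genes tested (0.0%). At an unadjusted p under 0.05 there were 3 members, Ighv1-7, Ighm and Igkv19-93, all higher under high salt, where 2.01% of all genes passed and 1.27% passed as higher. Ighv1-7 passed the filter only through its high salt counts, so its place in these counts was set by the filter and is a description. The fitted difference was higher under high salt for 17 of the 24 and lower for 7, with a median of 0.67 against -0.02 over all genes. Diets did not overlap for 2 of the 24, Ighv1-7 and Igkv19-93, both higher under high salt, against 3.84% of all genes. They did not overlap for 7 of all 101 rows, against 4.13%.

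These directions rested on a pair of libraries. Without high salt library 3 the members' median was -0.38, and without normal diet library 1 it was 0.17. With both left out, a choice made after seeing the data, 22 of 26 tested members were lower under high salt and the median was -0.95. At an unadjusted p under 0.05 there were 15 members lower and 2 higher, Ighv1-7 and Igkv19-93, where 9.87% of all genes passed. Ighv1-7 is again a description, for the same reason. Jchain had the smallest p of the members in this fit (log2 difference -1.18, SE 0.20, adjusted p 0.201 in edgeR), and 0 members were called. Ighm stayed higher under high salt at 0.94 (SE 0.42), while Igkc was at -0.79, Igha at -0.45, Ighg1 at -2.15 and Ighg2c at -2.28.

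**Figure D4:**
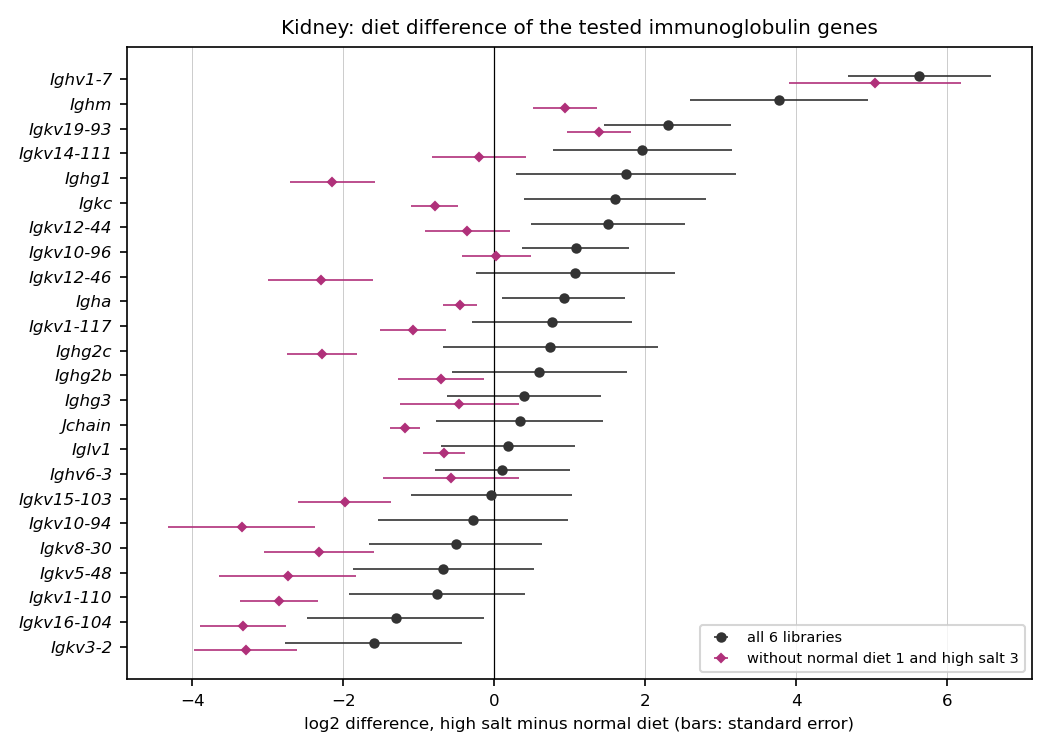
Log2 difference of high salt minus normal diet in kidney for the 24 tested members, with standard errors, from all 6 libraries (black circles) and without normal diet library 1 and high salt library 3 (magenta diamonds). Ighv1-7 lies at 5.63 and 5.04 in the 2 fits, while most other members move from above or near 0 to below it.

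In liver, no tested immunoglobulin gene differed between the diets beyond the spread of the libraries. Of the 28 members 6 passed the filter on low counts, and 0 of these had an adjusted p under 0.05 in edgeR, against 152 of 15130 genes (1.0%). None had an unadjusted p under 0.05, against 21.2% of all genes, and the diets overlapped for all 6, where they did not for 12.5% of all genes. Diets did not overlap for 1 of the 28 rows, the lambda segment Iglv2, at 0.0951, 0.0545, 0.0629 and 0.0481 CPM against 0.0355, 0, 0.0208 and 0.0353 CPM, where 5.01% of all rows were lower without overlap. These are 0 to 4 counts a library. Normal diet libraries 2 to 4 and high salt libraries 5 and 8 had 2 counts each, so their order rests on library size.

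Ighm was the most abundant heavy constant gene of liver per kb, at 5.02 CPM per kb over the 8 libraries. It stood at 8.44, 6.05, 7.01 and 5.55 CPM under normal diet and at 8.49, 7.81, 4.49 and 27.8 CPM in high salt libraries 5 to 8. Library 8 was above all others and library 7 below all others. Means were 6.76 ± 1.27 and 12.2 ± 10.6 CPM (SD, n = 4 each), and the log2 difference was 0.85 (SE 0.49, unadjusted p 0.112 and adjusted p 0.337 in edgeR). It was 0.0363 without library 8.

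Igkc stood at 9.79, 4.14, 2.58 and 3.99 CPM under normal diet and at 3.27, 3.27, 1.68 and 7.47 CPM under high salt (log2 difference -0.39, SE 0.50). Jchain stood at 2.28, 1.39, 0.912 and 0.769 CPM against 0.586, 0.456, 0.728 and 1.68 CPM (log2 difference -0.63, SE 0.48). Both were highest in normal diet library 1, and in each the diets overlapped. Igha stood at 0.761, 0.463, 0.346 and 0.577 CPM against 0.284, 0.477, 0.208 and 1.77 CPM (log2 difference 0.35, SE 0.64), and its highest value was in high salt library 8.

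The IgG genes Ighg2b and Ighg2c were highest in the same 2 liver libraries. Ighg2b stood at 3.4, 0.627, 0.157 and 0.601 CPM under normal diet and at 0.426, 0.414, 0.229 and 2.51 CPM under high salt (log2 difference -0.42, SE 0.93). Ighg2c stood at 0.832, 0.463, 0.0314 and 0.288 CPM against 0.071, 0.145, 0.166 and 0.918 CPM (log2 difference -0.32, SE 0.87). Normal diet library 1 and high salt library 8 were the highest of both genes. Ighg1 had 0 to 15 counts and was not tested, with 5, 4, 1 and 2 counts against 5, 6, 0 and 15. Without normal diet library 1, 5 of the 6 tested members were higher under high salt, against 2 of 6 with it.

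Per kb, Ighm made up most of the heavy constant signal in all 8 livers, 66.8% to 94.3% under normal diet and 86.1% to 92.7% under high salt. In the kidneys it exceeded 72.2% in no library. The IgG share was 29.0%, 15.6%, 2.40% and 12.7% in normal diet livers 1 to 4 and 5.09%, 6.74%, 7.90% and 10.1% in high salt livers 5 to 8. The diets overlapped.

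Variable segments of liver were near the limit of detection. The 21 segments summed to 115, 52, 13 and 39 counts under normal diet and to 50, 34, 13 and 110 counts under high salt. The only heavy segment in the table, Ighv1-56, had 2, 0, 0 and 0 counts against 2, 1, 1 and 7. The leading segment differed from library to library: Igkv6-32 in normal diet library 1, Igkv10-96 in library 2, Igkv19-93 with 2 counts in library 3 and Igkv4-74 in library 4, then Iglv1 in library 5, Igkv1-110 in library 6, Igkv12-44 in library 7 and Iglv1 in library 8. By CPM the highest mean over all livers was that of Igkv1-117, 0.1132 CPM, hardly above the 0.1127 CPM of Iglv1. Igkv1-117 stood at 0.124 ± 0.128 CPM under normal diet and 0.102 ± 0.0999 CPM under high salt (SD, n = 4 each). It was highest in neither diet: Igkv6-32 had a mean of 0.146 CPM under normal diet and Iglv1 0.137 CPM under high salt.

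Igkv1-117 and Igkv1-110 show how far reads could be placed. Their coding sequences are 97.2% identical, with 10 differing bases, all in the last 300 bases and in capitals here. Igkv1-117 lies at chr6:68121046-68121827 and Igkv1-110 at chr6:68270485-68271267, both on the plus strand of GRCm38.
Igkv1-117: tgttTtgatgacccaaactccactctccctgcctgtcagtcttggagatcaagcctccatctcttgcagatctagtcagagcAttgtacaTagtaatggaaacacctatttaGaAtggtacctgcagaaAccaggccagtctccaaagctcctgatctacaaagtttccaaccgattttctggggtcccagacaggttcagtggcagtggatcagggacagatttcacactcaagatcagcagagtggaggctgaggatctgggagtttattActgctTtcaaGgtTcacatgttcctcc
Igkv1-110: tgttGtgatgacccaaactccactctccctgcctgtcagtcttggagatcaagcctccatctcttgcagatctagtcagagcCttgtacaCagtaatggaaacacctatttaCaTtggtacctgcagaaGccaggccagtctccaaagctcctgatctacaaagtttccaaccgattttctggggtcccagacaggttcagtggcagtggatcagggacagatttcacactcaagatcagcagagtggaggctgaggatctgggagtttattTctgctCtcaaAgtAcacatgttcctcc
Their counts were fractions that added up to whole numbers in 3 liver and 4 kidney libraries, so the split between them is uncertain. Of the 93 segments with a coding sequence, 25 were at least 95% identical to another member, and the median identity to the nearest one was 90.8%.

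Immunoglobulin genes were higher in kidney than in liver. Of 24 members tested in a joint fit of all 14 libraries, 22 were called and all 22 were higher in kidney. Over all genes 74.1% were called and 36.2% were called as higher in kidney, so most genes differ between these tissues. Tissue also goes with the table and with the sequencing columns, which cannot be told apart from it. The median over the 24 members was 3.25 on the log2 scale, against -0.04 over all 16633 genes tested. In the fit of liver alone only 6 members passed the filter on low counts. The others entered the joint fit through their kidney counts, so their direction was largely set by the filter and is a description. With at least 10 counts in every library 4 members were tested, and all 4 were called as higher in kidney.

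The largest differences were those of Jchain, 5.74 (SE 0.69, adjusted p 2e-06 in edgeR), and Igkv14-111, 5.73 (SE 0.89, adjusted p 2.96e-05). Among heavy constant genes, Ighg1 differed by 5.04 (SE 0.96), Ighg2c by 4.70 (SE 0.94), Igha by 4.22 (SE 0.57) and Ighg2b by 3.03 (SE 0.82), each with an adjusted p of 0.00361 or less in edgeR. Igkc differed by 4.05 (SE 0.69). The segments Igkv19-93, Igkv16-104, Iglv1 and Igkv10-96 differed by 4.86, 4.54, 4.20 and 3.21 (SE 0.62 to 0.91). These segments, Igkv14-111 and Ighg1 did not pass the filter in the fit of liver alone, so their values are descriptions.

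Ighm had the smallest tissue difference of the constant genes. It was 1.25 (SE 0.59, adjusted p 0.0679 in edgeR), and Igkv6-32, at 0.67 (SE 0.88), was the other member that was not called. Ighm was called with RLE scaling (adjusted p 0.0478) and upper quartile scaling (adjusted p 0.0289), and without liver high salt library 8 (1.65, adjusted p 0.0194), kidney normal diet library 1 (adjusted p 0.0413), or kidney high salt library 1 or 2 (adjusted p 0.0373 and 0.0165). Without kidney high salt library 3 the Ighm difference was 0.0133 (adjusted p 0.98 in edgeR). The difference between Ighm and the other genes was not itself tested. Normal diet kidney library 1, with 2.75 CPM, had less Ighm than any liver library, and kidney high salt library 3 had more than any. The count of called members was 19 of 25 without kidney high salt library 3 and 24 of 26 without kidney normal diet library 1.

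**Figure D5:**
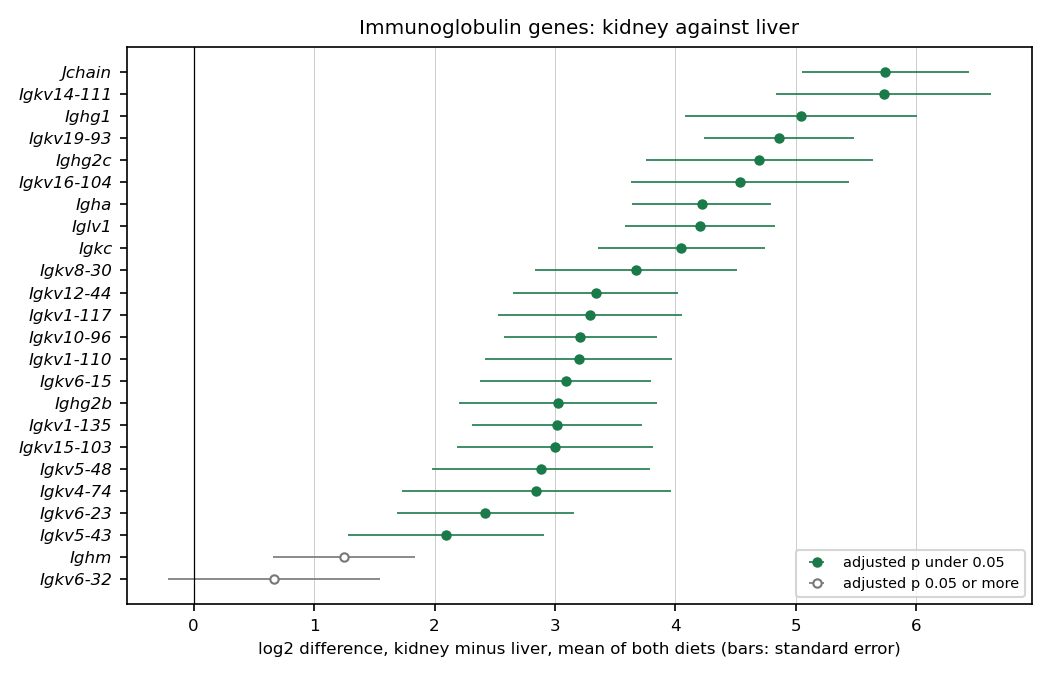
Log2 difference of kidney minus liver, averaged over the diets, for the 24 members tested in the joint fit, with standard errors. Filled points passed an adjusted p of 0.05; the values run from 0.67 for Igkv6-32 to 5.74 for Jchain, with Ighm at 1.25.

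The diet difference of the members was not shown to differ between the tissues. In the interaction of tissue and diet, 0 of 24 members and 0 of 16633 genes (0.0%) had an adjusted p under 0.05 in edgeR. At an unadjusted p under 0.05 there were 3 members against 10.1% of all genes. These were Igkv19-93 (liver minus kidney difference -3.79, SE 1.37), Igkv6-23 (-3.84, SE 1.47) and Ighm (-2.92, SE 1.21). Igkv19-93 and Igkv6-23 did not pass the filter in the fit of liver alone, so their values are descriptions. With each library left out the Ighm value ranged from -3.72 to -0.505. The median over the members was -1.05, and 0.226 without kidney high salt library 3, where 14 of 25 tested members lay above 0.

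Genes of the cells that make or carry antibody were listed beside the members. Cd79a, the signalling partner of surface immunoglobulin on B cells, stood at 0.05, 0.41 and 0.532 CPM in normal diet kidneys and at 1.03, 0.315 and 2.18 CPM in high salt kidneys (log2 difference 1.84, SE 0.84, adjusted p 0.9996 in edgeR). Mzb1, a chaperone of antibody-secreting cells, stood at 0.00206, 1.70 and 1.12 CPM against 0.415, 0.0805 and 2.64 CPM. Both were lowest in normal diet library 1 and highest in high salt library 3, as were most members. The summed level of 14 B cell genes was 12.1 to 15.5 CPM in normal diet kidneys and 13.2 to 22.4 CPM in high salt kidneys, and 0 of the 7 tested were called. Ebf1, a B cell transcription factor, was the largest single part of that sum in each kidney, at 8.64, 6.74 and 8.38 CPM against 10.4, 7.18 and 6.32 CPM, and it did not move with the members. Pax5 and Tnfrsf13c, both B cell genes, were at 0 in some kidney library, and so were Pou2af1 and Derl3 of the plasma cell list, where 0 of 11 tested were called. The part of these cells in the results was not tested.

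In liver, 1 gene of the plasma cell list was called. Derl3, a protein of endoplasmic reticulum quality control, stood at 2.92, 2.45, 6.51 and 10.04 CPM under normal diet and at 0.834, 0.58, 0.707 and 0.653 CPM under high salt, and the diets did not overlap. It fell by 2.98 on the log2 scale (SE 0.45, adjusted p 0.026 in edgeR), a call that was lost without any 1 of the 4 high salt libraries (adjusted p 0.0507 to 0.126), while the log2 difference stayed between -3.08 and -2.9. Of the 10 plasma cell list genes tested in liver, 4 had an unadjusted p under 0.05, all with a lower value under high salt, against 21.2% of all genes. The other 3 were Creld2 (log2 difference -1.60, adjusted p 0.0734 in edgeR), Fkbp11 (-0.91) and Xbp1 (-0.53), which secretory cells of many kinds also express. It did not move with the members: normal diet library 4 had the most Derl3, and library 1 had the most Jchain and Igkc. Cd79a, at 0.22 to 0.785 CPM under normal diet and 0.229 to 0.774 CPM under high salt, had a log2 difference of 0.42 (SE 0.49). The 16 B cell genes of liver summed to 4.01 to 5.56 CPM under normal diet and 3.47 to 7.72 CPM under high salt, and 0 of 9 tested were called.

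Receptors that carry antibody were measured in both tissues, and none was called by diet. Pigr, which moves polymeric IgA and IgM across epithelia, stood at 863 to 1162 CPM in normal diet livers and 812 to 1065 CPM in high salt livers (log2 difference -0.09, SE 0.19). In kidney it stood at 105, 129 and 124 CPM against 136, 97.8 and 164 CPM (log2 difference 0.15, SE 0.24). Fcgrt, the receptor that protects IgG from breakdown, stood at 59.9, 67.5 and 64.5 CPM in normal diet kidneys and at 73.8, 77.1 and 98.1 CPM in high salt kidneys, without overlap (log2 difference 0.38, SE 0.20, adjusted p 0.9996 in edgeR). Fcamr, a receptor for IgA and IgM, stood at 9.04, 7.73 and 5.96 CPM in normal diet kidneys and at 12.5, 10.7 and 10.9 CPM in high salt kidneys, also without overlap (log2 difference 0.58, SE 0.22, unadjusted p 0.0303 and adjusted p 0.9996 in edgeR). Of the genes for antibody receptors and transport, 0 of 9 tested were called in liver and 0 of 10 in kidney.

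Other lists bear on what else the samples held. T cell genes summed to 6.64 to 9.84 CPM in normal diet kidneys and 6.25 to 10.5 CPM in high salt kidneys. Genes of lymph node and spleen stroma summed to 3.62 to 8.13 CPM and 4.93 to 9.46 CPM, and Glycam1, Madcam1, Tlx1 and Nkx2-5 were not in the kidney table. Myeloid genes summed to 55.4 to 175 CPM in normal diet kidneys, and the 3 high salt kidneys lay within that range, the lowest at 65.9 CPM. Erythroid genes summed to 350.0 to 1550 CPM under normal diet and 731 to 1370 CPM under high salt. Normal diet library 1 had the lowest of both sums. Lyz2, a myeloid gene, stood at 14.7, 129 and 96.2 CPM in normal diet kidneys 1 to 3, and Hbb-bs, a haemoglobin gene, at 202, 1250.0 and 940 CPM. Adgre1, C1qa, C1qb, S100a8, S100a9, Hbb-bt, Hba-a1 and Hba-a2 were also lowest there among normal diet kidneys. The myeloid gene Csf1r was highest there, at 24.3, 17.0 and 15.9 CPM. Cd68 and Itgam of the myeloid list and Alas2 of the erythroid list lay between the other normal diet values. In liver all 5 erythroid genes had an unadjusted p under 0.05 and a lower value under high salt, against 21.2% of all genes, with sums of 725 to 1940 CPM against 271 to 720 CPM, and 0 of them were called. Their part in the results was not tested.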

How the data were processed

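RNA of mouse liver and kidney was sequenced from SMARTer mRNA libraries, per the labels' protocols. The submitters' processing notes name STAR 2.5.3a, Partek 7.0, DESeq2 and build mm10 with no roles. Expected counts deposited for each gene come from Partek's expectation-maximisation method, per the file headers, and cover genes with a total of at least 10 counts. A second deposited table per tissue holds normalized values, a signal on a linear scale whose method is not given in the sources used here. No per-sample column was left out (0 unused).

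Members and gene lists were chosen with earlier results of these data known. Named genes were the constant genes, Jchain, Ighv1-7, the 5 segments with the highest mean CPM and the 3 with the smallest diet p in each tissue, the leading segment of each library, called members among the 10 smallest p-values of a contrast, Cd79a, Mzb1, Derl3, Pigr, Fcgrt and other list genes that were called. Groups came from the labels.

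In R 4.3.3, edgeR 4.0.16 fitted the rounded expected counts by quasi-likelihood with TMM scaling and filterByExpr, over all genes, with Benjamini-Hochberg adjustment at 0.05. Diet was tested within each tissue, and tissue and the interaction in 1 fit of the 14 libraries over genes in both tables. The quasi-likelihood test gives no standard error, so each SE is the absolute log2 difference divided by the square root of the test's F statistic. CPM use TMM library sizes. Sums over a class have no test. Exon lengths, coordinates and sequences are from GENCODE M21 (GRCm38), in which every member was found with the same start. The fits were tested on simulated data. Alternatives were DESeq2 1.42.0, scaling by RLE or the upper quartile, limma 3.58.1 on log2 of the normalized values plus 1 or 0.1, other filters, the replicate block, mitochondrial genes left out, high salt liver libraries 5 and 6 summed, all 14 libraries in 1 fit, and each library left out. Intervals cover counting error only, since the libraries carry no molecular identifiers and reads are not independent molecules.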

Additional observations from a re-analysis of the deposited data

Results flagged for a closer look

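A library was marked where its gap to the nearest of its group of 4, divided by the group's range, was above Dixon's 95% critical value. Of 30 liver groups examined 5 were marked, where chance marks about 1 in 20, and these groups share libraries and genes. Kidney groups of 3 were not examined.

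Liver normal diet library 1 was marked for Ighg2b, at 3.4 CPM against 0.157 to 0.627 CPM in the other 3, and for the summed constant genes, at 23.4 CPM against 10.2 to 11.8 CPM. Liver high salt library 8 was marked for Ighg2b, at 2.51 CPM against 0.229 to 0.426 CPM, for Ighg2c, at 0.918 CPM against 0.071 to 0.166 CPM, and for the summed IgG genes, at 3.69 CPM against 0.395 to 0.684 CPM.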

How the results depend on the processing

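No member was called by diet in liver (0 of 6) or in the interaction (0 of 24) under any alternative run. In kidney the count of called members was 0, and 1 with DESeq2 (Ighv1-7). With the replicate number as a block it was also 0. The labels state no pairing of the kidneys. Same-numbered libraries correlated at 0.407, 0.373 and -0.0899 and the other pairs at -0.465 to 0.387, which cannot decide it. In the comparison of kidney with liver 22 members were called, from 19 to 24 with each library left out, and 4 of 4 tested with at least 10 counts in every library, where fewer members are tested. Upper quartile scaling moved the median of all genes in that comparison from -0.04 to 0.27. Over all genes the liver diet calls were 152, from 12 to 765 with each library left out, 12 with high salt libraries 5 and 6 summed, 260 with all 14 libraries in 1 fit and 1122 with DESeq2. The interaction calls were 0, and 145 with DESeq2, 2 with at least 10 counts in every library and up to 7 with a library left out. The kidney diet calls were 0 in edgeR, 1 without normal diet library 1 and high salt library 3 together and 11 in DESeq2.

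The log2 diet ratio of the summed constant genes in kidney was 1.79, from -0.088 to 2.31 with each library left out, and that of the segments 1.64, from -0.291 to 2.12. In liver these were 0.36 (-0.419 to 0.716) and -0.53 (-1.15 to 0.0468). Without kidney normal diet library 1 and high salt library 3, chosen after seeing the data, the constant genes gave -0.64. In the same setting the diet difference changed sign for Igha (-0.452), Ighg1 (-2.15), Ighg2b (-0.711), Ighg2c (-2.28), Ighg3 (-0.462), Igkc (-0.792), Igkv14-111 (-0.204), Iglv1 (-0.663), Jchain (-1.18), Mzb1 (-2.44) and Pigr (-0.107). With each library left out, kidney values ranged from -1.55 to 3.19 for Ighg1, -0.141 to 1.77 for Ighg2b, -1.71 to 1.81 for Ighg2c, -0.188 to 0.96 for Ighg3, -0.237 to 2.09 for Igkc, -0.399 to 0.597 for Iglv1, -0.616 to 0.834 for Jchain, -1.88 to 0.905 for Mzb1 and -0.0306 to 0.327 for Pigr. Liver values ranged from -0.738 to 0.629 for Igha, -1.75 to 0.93 for Ighg2b, -1.68 to 0.292 for Ighg2c and -0.903 to 0.126 for Igkc. With limma on the normalized values, Igha in liver was -0.113 (pseudocount 1) and -0.133 (pseudocount 0.1), the reverse of 0.35. The cause of these changes was not tested.

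Depth limits liver segments most, with 13 to 115 counts a library for all 21 together, and of the liver segments none passed the filter on low counts. Segments at 0 are known only to lie under 3 counts.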

Other observations

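The segments in this paragraph were named after their values were seen. Igkv1-99 had 0, 44 and 16 counts in normal diet libraries 1 to 3 and 2, 0 and 0 counts in high salt libraries 1 to 3, and it did not pass the filter on low counts. Igkv3-2 had 0, 21 and 72 counts against 5, 4 and 23, and Igkv16-104 had 0, 30 and 52 against 6, 2 and 28, with log2 differences of -1.60 (SE 1.18) and -1.31 (SE 1.17) that were not called, and the diets overlapped for both. A further 5 segments, too low to be tested, lay higher in CPM under high salt without overlap between the diets. With Ighv1-7 and Igkv19-93 they were 7 of 101 rows, against 4.13% of all rows. They were Igkv12-41 (0, 4 and 3 against 23, 4 and 34 counts), Igkv13-84 (0, 0 and 3 against 6, 3 and 17.2), Igkv3-5 (0, 0 and 1 against 11, 4 and 17.8), Ighv1-9 (0, 0 and 2 against 8, 2 and 5) and Igkv4-68 (0, 0 and 1 against 4, 2 and 5.39). Igkv12-41, Igkv13-84 and Ighv1-9 had equal counts in a normal diet and a high salt library, so their order there rests on library size.

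The lambda constant genes, which were not members, made up 4.93%, 8.18% and 7.64% of the light chain constant signal per kb in normal diet kidneys and 6.07%, 8.93% and 2.72% in high salt kidneys. High salt library 3 had the lowest lambda share.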
